A study of Mus musculus with 24 samples.

Results

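The genes described here encode the subunits of the mitochondrial respiratory chain and of ATP synthase, the machinery of oxidative phosphorylation, together with a few assembly factors. They were taken as the protein-coding rows of chromosome M and the rows whose symbol starts with Nduf, Uqcr, Atp5, Cox4 to Cox8 or is Sdha to Sdhd, with a mean CPM (counts scaled to a common library size) of at least 1. This gave 99 members among 53647 genes in the table, of which 11 were mitochondrial and 88 nuclear. Grouped by symbol, the nuclear members held 38 subunits and 8 assembly factors of complex I, 4 subunits of complex II, 8 of complex III, 13 of complex IV and 17 of complex V. Ndufa4, now assigned to complex IV, and its isoform Ndufa4l2 were counted with complex I throughout because of their names. Another 7 genes matched by name lay below 1 CPM on average (mt-Nd4l, mt-Atp8, Cox7a1, Cox7b2, Cox8b, Cox8c and a second identifier of Atp5o). Cox4i1, which lies on chromosome 8 within the interval from 113.2 to 123.4 Mb that the choice of members left out, was not described as a member. All 99 passed the filter on low counts.

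The libraries came from the brain cortex of mice aged 7.5 months, in 3 genotypes with 8 libraries each. All of the mice carried 5xFAD, human transgenes with mutations of familial Alzheimer's disease, driven by the neuronal Thy1 promoter, so no group was free of the transgenes. The first group carried 5xFAD and no listed Plcg2 variant, the second 5xFAD with homozygous Plcg2 M28L, and the third 5xFAD with homozygous Plcg2 P522R. Plcg2 encodes phospholipase C gamma 2, which in the brain is known chiefly from microglia, and both variants are known from human studies of Alzheimer's disease risk. Each title held an F or an M, and every genotype had 4 libraries of either letter. Xist was at 170 to 420 CPM in the 12 F libraries and at 0.00854 to 1.86 CPM in the 12 M libraries. Ddx3y, a gene of the Y chromosome, was at 0 to 0.328 CPM and 32.7 to 52.3 CPM respectively.

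Electrons from NADH enter the chain at complex I and those from succinate at complex II. They pass through complex III and cytochrome c to complex IV, which reduces oxygen, and the proton gradient that complexes I, III and IV build drives ATP synthase, complex V. Mitochondrial DNA encodes a small set of core subunits of complexes I, III, IV and V, transcribed as long precursors from both strands, while the nucleus encodes the other subunits and all of complex II. In the cortex this machinery supplies most of the ATP that neurons use for ion pumping and synaptic transmission.

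Total counts ran from 79230161 to 115154197 per library. Bc1, a short noncoding RNA of neurons, took 3.61% to 10.4% of the counts in 5xFAD, 3% to 6.01% in M28L and 5.32% to 19.8% in P522R libraries. The number of genes with a count was 27831 to 29012 in 5xFAD, 25608 to 28227 in M28L and 22958 to 26648 in P522R. Summed neuronal markers were at 5643 to 8310 CPM across the libraries, and summed choroid plexus markers at 1.76 to 257 CPM. Plcg2 itself was at 9.38 ± 2.61 CPM in 5xFAD, 8.69 ± 1.96 in M28L and 19.5 ± 6.51 in P522R (SD, n = 8 each). In bulk tissue, fewer cells of a type and less RNA per cell cannot be told apart.

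The mitochondrial genes fell into 2 sets by level. Per kb of exon, mt-Co1 (the catalytic subunit of complex IV) averaged 8653 CPM, mt-Cytb (cytochrome b of complex III) 5347 CPM and mt-Nd1 4808 CPM over all libraries. The complex I genes mt-Nd2, mt-Nd4 and mt-Nd5 averaged 2807, 2026 and 1757 CPM per kb, and mt-Nd6 averaged 1044 CPM per kb. The 4 genes mt-Co2, mt-Atp6, mt-Co3 and mt-Nd3, which lie on chromosome M between mt-Co1 and mt-Nd4, were far lower. Mt-Co2 was listed at 5.32 CPM, mt-Atp6 at 3.67 CPM, mt-Co3 at 6.34 CPM and mt-Nd3 at 15.1 CPM on average. Chromosome 1 carries nuclear copies of these genes, of mt-Nd4l and of a part of mt-Nd4. The transcript of mt-Co2 matched the pseudogene Gm28661 at chr1:24653966-24654646 over 681 of 684 bases with 0 mismatches, and that copy was listed at 4.75 CPM. Mt-Atp6 matched Gm10925 over 678 bases and mt-Co3 matched Gm28437 over 783 bases, each with 0 mismatches. Mt-Nd3 differed from Gm28438 at 1 base of 345. Mt-Nd4 was identical to Gm28439 over 876 of its 1378 bases and free of that copy over the rest. The best copies of mt-Co1, mt-Cytb and mt-Nd6 were 97.6%, 92.9% and 93.6% identical. How the counting treated reads with several matching positions was not given in the sources used here, so the levels of mt-Co2, mt-Atp6, mt-Co3 and mt-Nd3 are uncertain, and that of mt-Nd4 in part. Coordinates here are those of the deposited table, for which the sources used here give no build.

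The first 60 aligned bases of 4 mitochondrial transcripts and of their nuclear copies, from GENCODE M21, are shown for genes with few and with more differences from their copy. Whether the copies bear on the listed levels was not tested. Capitals mark the bases that differ within each pair.
mt-Co2: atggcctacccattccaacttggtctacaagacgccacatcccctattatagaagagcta
Gm28661: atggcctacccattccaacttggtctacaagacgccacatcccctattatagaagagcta
mt-Nd3: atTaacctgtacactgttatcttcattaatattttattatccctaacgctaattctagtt
Gm28438: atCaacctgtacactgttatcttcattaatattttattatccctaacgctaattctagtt
mt-Co1: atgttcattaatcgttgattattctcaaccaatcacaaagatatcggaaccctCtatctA
Gm13340: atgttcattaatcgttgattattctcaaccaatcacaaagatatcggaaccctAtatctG
mt-Cytb: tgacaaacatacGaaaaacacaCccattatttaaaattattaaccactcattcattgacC
Gm11410: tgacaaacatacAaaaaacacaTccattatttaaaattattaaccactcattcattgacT
Within these 60 bases the pairs differed at 0, 1, 2 and 3 positions. Gm28438, the copy of mt-Nd3, was listed at 0.28 CPM against 15.1 CPM for mt-Nd3, whereas mt-Co2 and its identical copy were at 5.32 and 4.75 CPM. Gm13340 and Gm11410 were at 9.63 and 0.165 CPM.

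**Figure D1:**
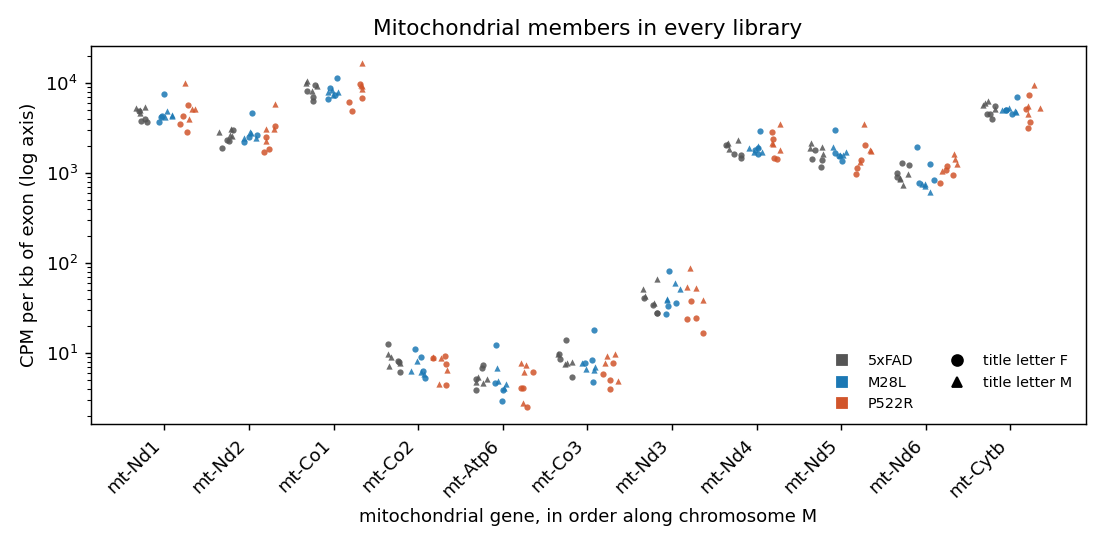
Level of each mitochondrial member in CPM per kb of exon (log axis), in order along chromosome M, with 1 point per library, coloured by genotype and shaped by title letter. The genes mt-Co2, mt-Atp6, mt-Co3 and mt-Nd3 lie far below their neighbours in every library of all 3 genotypes.

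Among nuclear members the highest levels per kb belonged to the catalytic head of ATP synthase. Atp5a1, its alpha subunit, averaged 323.9 CPM per kb and Atp5b, its beta subunit, 304.6 CPM per kb. The complex IV subunits Cox6b1, Cox6a1 and Cox8a followed at 277.9, 268.7 and 249.7 CPM per kb. At the other end stood Cox6b2, Ndufa4l2 and Cox4i2 at 0.982, 1.72 and 2.56 CPM per kb. These are isoforms known from testis (Cox6b2) or from oxygen-poor conditions and vessel wall cells (Ndufa4l2, Cox4i2), and the cortex held little of each. Of the nuclear members, 46 had a stretch of at least 100 bases with at least 90% identity to a transcript of another gene, and 0 had one over at least 90% of their length.

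M28L and 5xFAD libraries were compared first. No member passed the test, an edgeR quasi-likelihood fit with Benjamini-Hochberg adjusted p below 0.05 as the call, while 1.21% of all 21280 genes tested did (0.503% higher and 0.710% lower in M28L). At an unadjusted p below 0.05 the fit listed 1 of 88 nuclear and 0 of 11 mitochondrial members, beside 2410 of all 21280 genes. DESeq2 called 0 members, beside 2.54% of all genes. With sample weights, limma-voom called 2 nuclear members (Cox6c and Ndufa5, both lower) and mt-Nd6 (lower), beside 9.1% of all genes. The nuclear member with the smallest p was Ndufb7, an accessory subunit of complex I, at 48.6 ± 9.54 CPM in M28L and 53.9 ± 10.5 CPM in 5xFAD (SD, n = 8 each; adjusted p = 0.38). The median log2 difference was -0.03 over the nuclear and 0.03 over the mitochondrial members, beside 0.01 over all genes. The largest differences among nuclear members were -0.27 and 0.20.

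Between P522R and each of the other genotypes, part of the nuclear members passed the test, with overlapping ranges throughout. Against 5xFAD, 34 of 88 nuclear members rose and 2 fell, beside 15.0% of all genes higher, 14.8% lower and 29.8% called either way. Against M28L, 39 rose and 3 fell, beside 16.5% higher, 18.3% lower and 34.8% either way. All members have a mean of at least 1 CPM. In a fit of the 14656 genes with that mean, 36 nuclear members rose and 2 fell against 5xFAD, where 43% of the genes were called (3264 higher of 6299), and 42 rose and 3 fell against M28L, where 48.8% were called (3692 higher of 7150). The share of members called either way was thus near that of genes of such a level, and what differed was the direction, which was not tested. The 2 comparisons share the P522R libraries and are not independent of each other. The median log2 difference over the nuclear members was 0.16 against 5xFAD and 0.20 against M28L, and over all genes -0.04 and -0.03. Of the 11 mitochondrial members, 0 passed the edgeR test in either comparison. At an unadjusted p below 0.05 edgeR listed 0 of them, beside 8496 of 21280 genes against 5xFAD and 9233 against M28L. DESeq2 called 0 mitochondrial members, beside 32.4% of all genes against 5xFAD and 36.9% against M28L. In limma-voom, 0 were called against 5xFAD and mt-Nd6 (higher) against M28L, beside 38.8% and 34.7% of all genes. For 0 of the 99 members were the ranges of 2 genotypes separate, in any comparison, where 0.254% (M28L against 5xFAD), 2.89% (P522R against 5xFAD) and 2.61% (P522R against M28L) of all genes had ranges that did not overlap. With the log2 Bc1 share of each library as a covariate, 2 nuclear members were called against 5xFAD and 0 against M28L, beside 4.18% and 0.094% of all genes. In the edgeR fit Bc1 itself was higher in P522R. Its log2 difference was 0.96 ± 0.18 against 5xFAD (adjusted p = 0.00021) and 1.48 ± 0.18 against M28L (adjusted p = 1.4e-06). The covariate and the genotype therefore cannot be fully told apart. With the title prefix as a block, 1 and 5 were called, beside 4.4% and 5.92% of all genes.

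**Figure D2:**
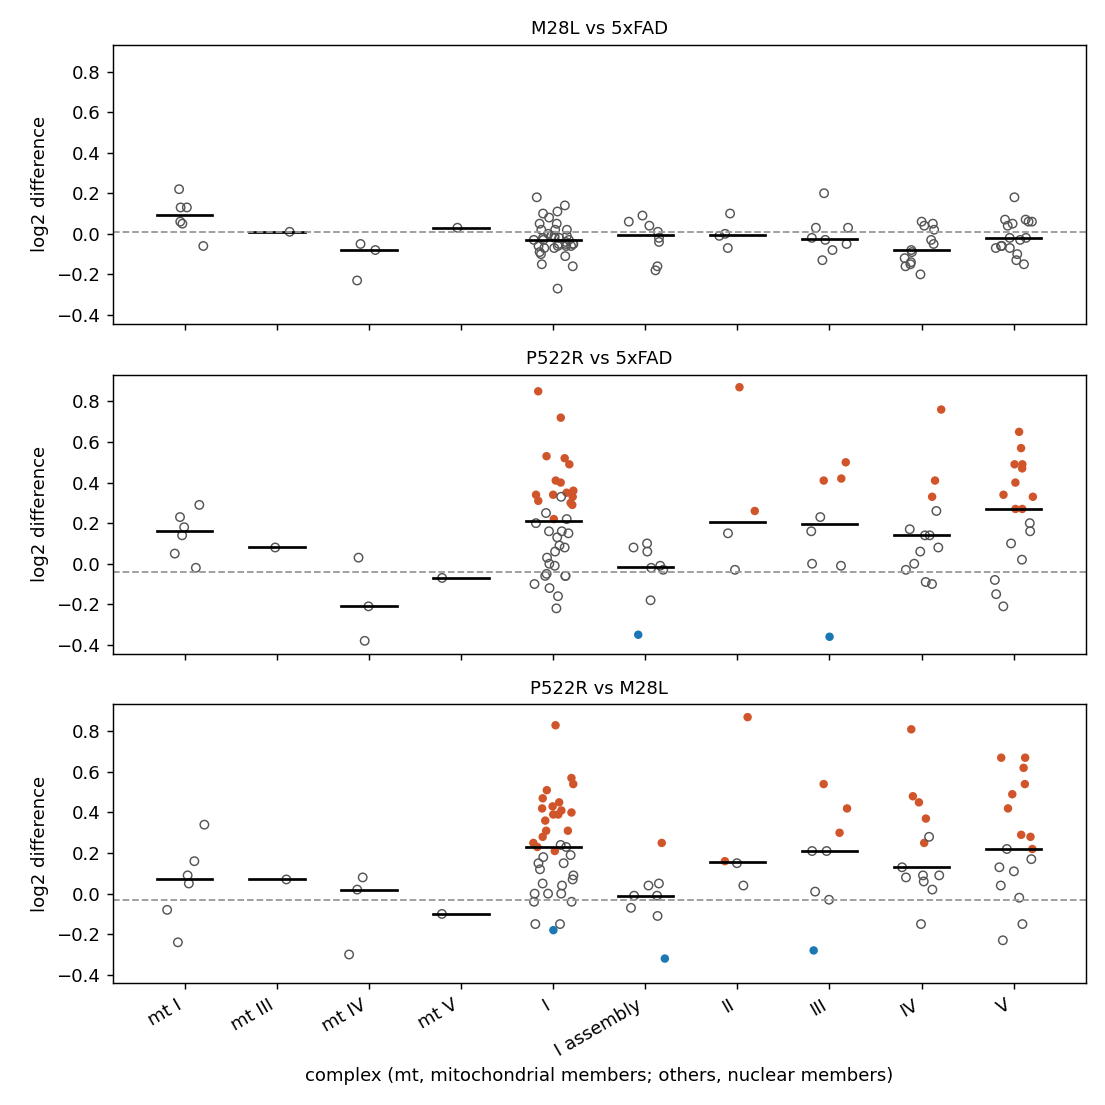
Log2 difference of each member in the 3 comparisons, grouped by complex, with mitochondrial members at the left. Red points were called higher, blue points lower and open circles were not called; black bars are group medians and the dashed line is the median of all genes tested. The M28L panel has no filled points, while both P522R panels have red points in complexes I to V and none among the mitochondrial members.

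In complex II, which is wholly nuclear and is also the succinate dehydrogenase of the citric acid cycle, the catalytic pair rose and the membrane anchors did not pass the test. Sdhb, the iron-sulfur subunit, had the largest rise of all members against 5xFAD. Its level ran from 99 through a median of 153 to 206 CPM in 5xFAD, from 111 through 140 to 200 CPM in M28L, and from 173 through 262 to 377 CPM in P522R. In P522R, 7 of the 8 libraries lay above every 5xFAD and M28L library, and the lowest, mouse 54 at 173 CPM, lay within both ranges. The log2 difference was 0.87 ± 0.13 (SE; adjusted p = 1.5e-05) against 5xFAD and 0.87 ± 0.13 (adjusted p = 1e-05) against M28L. With the Bc1 covariate it was 0.51 ± 0.16 (adjusted p = 0.059) and 0.29 ± 0.21 (adjusted p = 0.80). Sdha, the flavoprotein subunit, was at 365, 403 and 457 CPM (lowest, median, highest) in 5xFAD, 408, 438 and 466 CPM in M28L and 451, 492 and 518 CPM in P522R. Its log2 difference was 0.26 ± 0.05 (adjusted p = 0.00061) against 5xFAD and 0.16 ± 0.05 (adjusted p = 0.022) against M28L. Of the 15 alternatives other than leaving out 1 library, 1 lost the Sdha call against 5xFAD and 7 that against M28L. The anchors Sdhc and Sdhd were at 95.6 ± 13.7 and 78.8 ± 9.16 CPM in P522R and at 97.1 and 71.8 CPM on average in 5xFAD (adjusted p = 0.84 and 0.15).

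In complex I, 16 of 38 nuclear subunits rose and 0 fell against 5xFAD, and 19 rose and 1 fell against M28L, with medians of 0.21 and 0.23. Of the 7 core subunits, which hold the flavin and the iron-sulfur clusters, 5 rose against 5xFAD, with Ndufv1, Ndufs3, Ndufs7 and Ndufs8 among them. Ndufs8 was at 65.2, 93.4 and 110 CPM (lowest, median, highest) in 5xFAD, 72.2, 87.5 and 114 CPM in M28L and 96.8, 120 and 177 CPM in P522R. All 8 P522R libraries lay above the 5xFAD mean, although the ranges overlapped, and the log2 difference was 0.52 ± 0.10 (adjusted p = 0.00023). Ndufv1, which binds NADH and the flavin, was at 165 to 233 CPM in 5xFAD and at 168 to 357 CPM in P522R, a log2 difference of 0.41 ± 0.11 (adjusted p = 0.0072). Ndufs1, the largest core subunit, went the other way against M28L. It was at 148 to 161 CPM in M28L, 129 to 164 CPM in 5xFAD and 118 to 164 CPM in P522R, and fell by 0.18 ± 0.06 on the log2 scale against M28L (adjusted p = 0.020), a call that was lost in 8 of the 15 alternatives other than leaving out 1 library and without P522R mouse 24 (-0.12). With offsets for GC content and length the value was 0.05. Ndufs4, an accessory subunit, was at -0.05 ± 0.10 against 5xFAD (adjusted p = 0.74).

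Of the 31 accessory subunits of complex I, 11 rose against 5xFAD and 14 against M28L. Ndufa7 ran from 37.4 to 77.1 CPM in 5xFAD (median 59.9), from 43.2 to 79.6 CPM in M28L (median 55.1) and from 64.3 to 145 CPM in P522R (median 92.2). Its log2 difference against 5xFAD was 0.85 ± 0.13 (adjusted p = 2.6e-05), and all 8 P522R libraries lay above the 5xFAD mean. Ndufa12 was at 66.5 to 140 CPM in 5xFAD and 108 to 185 CPM in P522R (0.72 ± 0.16, adjusted p = 0.0012). In M28L it ran from 78.7 to 235 CPM, with mouse 28 alone far above the others. Ndufa11, Ndufb10 and Ndufa9 rose by 0.53, 0.49 and 0.33 on the log2 scale against 5xFAD, each with an SE of 0.08 to 0.11. Ndufa4, first described in complex I and now assigned to complex IV, was at 126 ± 17.6 CPM in P522R and 132 CPM on average in 5xFAD (adjusted p = 0.69). Its isoform Ndufa4l2 was at 1.43 to 1.9 CPM in M28L, 1.64 to 2.57 CPM in 5xFAD and 1.25 to 4.07 CPM in P522R (adjusted p = 0.64 against 5xFAD).

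The 8 Ndufaf assembly factors, which build complex I and are not part of it, had medians of -0.02 and -0.01. Against 5xFAD 0 rose and Ndufaf6 fell. Ndufaf6 was at 4.1 to 5.34 CPM in 5xFAD, 4.22 to 5.16 CPM in M28L and 3.03 to 4.69 CPM in P522R. Every P522R library lay below the 5xFAD mean, with a log2 difference of -0.35 ± 0.09 (adjusted p = 0.0040) and of -0.32 ± 0.09 against M28L (adjusted p = 0.0075). Against M28L Ndufaf3 rose by 0.25 ± 0.09 (adjusted p = 0.023), a call that was lost without the letter term, in the limma-voom fit, in the M libraries alone and with offsets for GC content and length, and whose sign turned (-0.09) with the Bc1 covariate. The difference between subunits and assembly factors was not tested.

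In complex III, 3 of 8 nuclear subunits rose and 1 fell in each P522R comparison. Uqcrc1, a core protein of the matrix arm, was at 205, 265 and 293 CPM (lowest, median, highest) in 5xFAD, 207, 249 and 289 CPM in M28L and 255, 322 and 448 CPM in P522R. Its log2 difference against 5xFAD was 0.41 ± 0.10 (adjusted p = 0.0024). The hinge protein Uqcrh and the small subunit Uqcrq rose by 0.50 ± 0.12 and 0.42 ± 0.11 (adjusted p = 0.0020 and 0.0048). Uqcrfs1, the Rieske iron-sulfur protein that passes electrons towards cytochrome c, fell. It was at 87.9, 92.3 and 96 CPM in 5xFAD, a narrow range, at 64.6, 89.2 and 101 CPM in M28L, and at 60.2, 71.7 and 89.2 CPM in P522R. In P522R, 7 of 8 libraries lay below every 5xFAD library, mouse 54 being the other. The log2 difference was -0.36 ± 0.08 (adjusted p = 0.0018) against 5xFAD and -0.28 ± 0.08 (adjusted p = 0.0099) against M28L. Uqcrc2, the other core protein, differed by -0.00 ± 0.07 from 5xFAD.

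In complex IV, 3 of 13 nuclear subunits rose against 5xFAD and 5 against M28L, and 0 fell. Cox6a1, Cox5b and Cox4i2 were the 3, with log2 differences of 0.33 ± 0.08, 0.41 ± 0.12 and 0.76 ± 0.16 (adjusted p = 0.0031, 0.010 and 0.00059). Of the 15 alternatives other than leaving out 1 library, 5 lost the Cox6a1 call, 5 the Cox5b call and 3 the Cox4i2 call. Offsets for GC content and length lost the Cox6a1 and Cox5b calls. Cox4i2, the isoform of subunit 4 that is induced at low oxygen, was at 1.18, 1.57 and 2.22 CPM (lowest, median, highest) in 5xFAD, 1.1, 1.54 and 2.35 CPM in M28L and 1.67, 2.94 and 3.54 CPM in P522R. Mouse 54 again had the lowest P522R value. Cox4i2 is known from pericytes and smooth muscle. The 4 mural markers were split. Pdgfrb (0.46 ± 0.14) and Acta2 (0.71 ± 0.17) rose against 5xFAD. Kcnj8 and Rgs5 were lower, with log2 differences down to -0.32, and did not pass the test. All 4 had an unadjusted p below 0.05 in the edgeR fit, and their median log2 difference was 0.13. Their summed level was 70.2 to 97.8 CPM in 5xFAD and 71.2 to 104 CPM in P522R. Their part in the Cox4i2 result was not tested. Cox6a2, the heart and muscle isoform of subunit 6a, was at 3.7 to 7.64 CPM in 5xFAD and at 4.22 to 8.71 CPM in P522R (adjusted p = 0.065), and rose against M28L (0.45 ± 0.10, adjusted p = 0.0013). Cox5a was at 112 ± 11.3 CPM in P522R, 99.5 ± 10.4 in 5xFAD and 95.4 ± 20.8 in M28L, and rose against M28L (0.25 ± 0.08, adjusted p = 0.017). Cox8a and Cox7a2 differed from 5xFAD by -0.03 and -0.00 (adjusted p = 0.82 and 0.98).

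In complex V, 10 of 17 nuclear subunits rose against 5xFAD and 9 against M28L, and 0 fell, with medians of 0.27 and 0.22. In the catalytic head 4 of 5 rose. Atp5a1 was at 835, 946 and 1037 CPM (lowest, median, highest) in 5xFAD, 888, 970 and 1111 CPM in M28L and 916, 1178 and 1314 CPM in P522R. Its log2 difference was 0.27 ± 0.07 (adjusted p = 0.0031) against 5xFAD, and 7 of 8 P522R libraries lay above the 5xFAD mean. Atp5b ran from 1018 to 1399 CPM in 5xFAD and from 1178 to 1800 CPM in P522R, with the like difference of 0.27 ± 0.08 (adjusted p = 0.0082). The small head subunits Atp5d and Atp5e rose by 0.49 ± 0.12 and 0.57 ± 0.14 (adjusted p = 0.0031 and 0.0039). Of the 3 genes for the proton-carrying c-ring, whose mature proteins are identical, Atp5g3 and Atp5g2 rose by 0.47 ± 0.11 and 0.34 ± 0.10, and Atp5g1 was at 0.10 ± 0.07 (adjusted p = 0.28). Of the 15 alternatives other than leaving out 1 library, 7 lost the Atp5g2 call and 4 the Atp5g3 call. Offsets for GC content and length and either letter alone were among the 7. Atp5mpl, a small membrane subunit, was at 39.9 to 86.2 CPM in 5xFAD, 35.9 to 90.3 CPM in M28L and 69.7 to 119 CPM in P522R, and rose by 0.65 ± 0.14 (adjusted p = 0.0010). Atp5o, in the stalk, rose by 0.49 ± 0.10 (adjusted p = 0.00046); its span overlaps that of a second identifier of the same symbol, which was listed at 0. Atp5j, another stalk subunit, was at -0.21 ± 0.09 (adjusted p = 0.077).

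**Figure D3:**
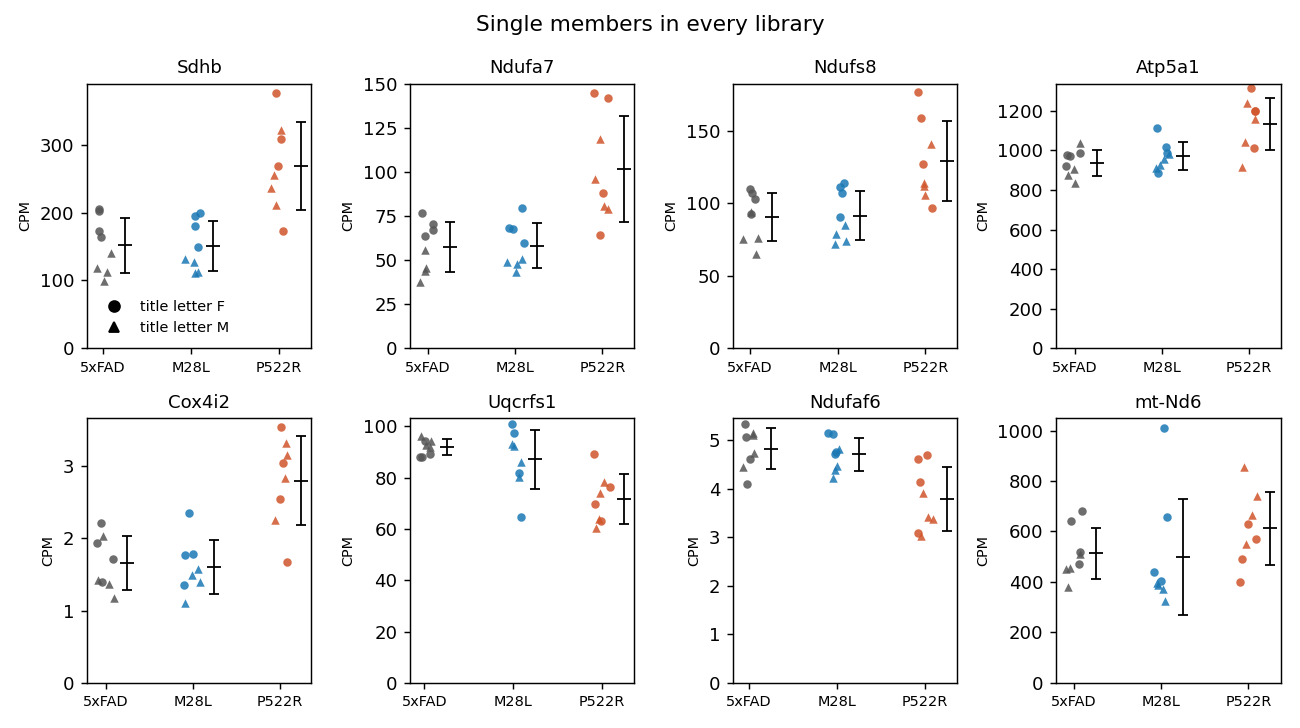
CPM of 8 members in every library by genotype, with circles for title letter F and triangles for M; bars are the mean and SD of 8 libraries. Sdhb, Ndufa7, Ndufs8, Atp5a1 and Cox4i2 sit higher in P522R and Uqcrfs1 and Ndufaf6 lower, with overlap in each panel, and mt-Nd6 was not called.

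Summed over the complex, nuclear complex I was at 3089 ± 489 CPM in 5xFAD, 3081 ± 571 in M28L and 3636 ± 480 in P522R (SD, n = 8 each). Nuclear complex V was at 3954 ± 475, 3984 ± 483 and 4780 ± 584 CPM in the same order. Complex II was at 729 ± 56.6, 752 ± 45.3 and 932 ± 95.5 CPM. Nuclear complex III was at 990 ± 134, 1007 ± 168 and 1162 ± 162 CPM, and nuclear complex IV at 1361 ± 209, 1325 ± 306 and 1464 ± 154 CPM. These sums describe the libraries and were not tested.

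The mitochondrial members showed no called difference between genotypes, and in P522R a wider spread between mice than the nuclear members. The spread was taken as the SD between libraries of the median log2 deviation of members from their means. In P522R it was 0.49 over the mitochondrial and 0.15 over the nuclear members. It was 0.33 and 0.28 in M28L, and 0.22 and 0.22 in 5xFAD. Mt-Co1 ran from 9693 through a median of 13639 to 16506 CPM in 5xFAD, from 10409 through 12323 to 17783 CPM in M28L and from 7687 through 13952 to 25877 CPM in P522R. The highest P522R value was that of mouse 21, and the highest M28L value that of mouse 28. Its log2 difference was 0.03 ± 0.15 between P522R and 5xFAD (adjusted p = 0.90). Mt-Cytb was at 6021 ± 963 CPM in 5xFAD, 5982 ± 913 in M28L and 6348 ± 2357 in P522R (0.08 ± 0.15 against 5xFAD, adjusted p = 0.75). Mt-Nd1, mt-Nd2, mt-Nd4 and mt-Nd5 differed from 5xFAD by 0.14, 0.18, 0.23 and 0.05 in P522R, with SEs of 0.15 to 0.19. Mt-Co2, mt-Co3, mt-Atp6 and mt-Nd3, whose levels are uncertain, differed by -0.21, -0.38, -0.07 and -0.02.

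Mt-Nd6 encodes a membrane subunit of complex I and is the one protein-coding gene transcribed from the opposite strand to the other mitochondrial genes. It was at 381, 491 and 680 CPM (lowest, median, highest) in 5xFAD, 325, 400 and 1011 CPM in M28L and 400, 600 and 857 CPM in P522R. The P522R difference was 0.29 ± 0.18 against 5xFAD (adjusted p = 0.25) and 0.34 ± 0.18 against M28L (adjusted p = 0.15). Without M28L mouse 28, whose 1011 CPM was the highest value of all, the difference from M28L was 0.53 ± 0.14 (adjusted p = 0.0051), and without P522R mouse 8 it was 0.47 ± 0.17 (adjusted p = 0.041). Offsets for GC content and length gave 0.41 ± 0.08 against 5xFAD (adjusted p = 0.00029) and 0.42 ± 0.08 against M28L (adjusted p = 0.0002). That fit called mt-Nd4 in both comparisons and mt-Nd2 against 5xFAD as well, beside 31.9% and 33.6% of all genes against 5xFAD and M28L. On the deposited counts, reads of mt-Nd6 and of a transcript on the other strand cannot be told apart, since the sources used here do not give the strand setting of the counting.

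The balance of mitochondrial and nuclear transcripts was read as a ratio within each library, as a description. The log2 ratio of the summed CPM was 1.67 ± 0.40 in 5xFAD, 1.66 ± 0.29 in M28L and 1.46 ± 0.64 in P522R (SD, n = 8 each). Within complex I, with the well counted genes alone, it was 2.11 ± 0.42, 2.17 ± 0.34 and 1.96 ± 0.66, within complex III 2.60 ± 0.41, 2.57 ± 0.26 and 2.38 ± 0.64, and within complex IV 3.29 ± 0.42, 3.28 ± 0.32 and 3.17 ± 0.61. The P522R libraries spanned the widest range, from 0.76 in mice 8 and 106 to 2.65 in mouse 21, and the genotypes overlapped in every case.

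Nuclear sums were higher in the libraries with the most Bc1 in P522R and 5xFAD. In M28L all 8 libraries had a Bc1 share of at most 10%, and their nuclear sums ran from 8644 to 12420 CPM. The highest M28L sum was that of mouse 14, at a Bc1 share of 3.99%. The 4 P522R libraries with a Bc1 share over 10% had nuclear sums of 12019 to 14037 CPM, and the other 4 had 10297 to 11889 CPM. The 1 such library of 5xFAD had 11927 CPM, and the other 7 of that genotype 8344 to 11625 CPM. Without these 5 libraries, 13 nuclear members rose and 2 fell against 5xFAD, where 11.5% of all genes were called, and 18 rose and 0 fell against M28L, where 13.3% were called. Sdhb then differed from 5xFAD by 0.74 ± 0.14 (adjusted p = 0.0021). The part of Bc1, of the number of detected genes and of library make-up in the difference between genotypes was not tested. Across the 88 nuclear members, the log2 difference of P522R from 5xFAD had a Spearman correlation of 0.31 with the GC content of the gene, and across 21204 genes of 0.36. These correlations are across genes of the same libraries. The 34 members that rose had a median GC content of 53%, and the 52 not called one of 48.7%.

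**Figure D4:**
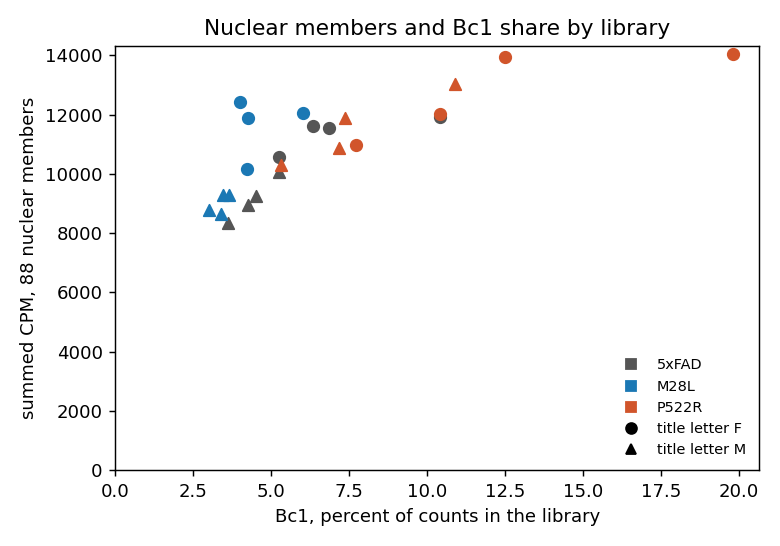
Summed CPM of the 88 nuclear members against the share of counts taken by Bc1, with 1 point per library, coloured by genotype and shaped by title letter. Libraries with the most Bc1, 4 of them P522R, have sums of 11927 CPM or more, and those of letter M in 5xFAD and M28L have the lowest sums. M28L mice 14 and 28, at Bc1 shares of 3.99% and 6.01%, have sums of 12420 and 12046 CPM.

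A second pattern ran along the title letter. In 5xFAD, 83 of 88 nuclear members had a higher mean in F than in M libraries, with a median log2 ratio of 0.38, and for 62 of them every F library lay above every M library, beside 14.1% of all genes. In M28L these numbers were 84, 0.53 and 64, beside 10.7% of all genes. In P522R they were 68, 0.14 and 6, beside 5.64%. The nuclear sum was 11419 ± 590 CPM in F and 9157 ± 721 in M libraries of 5xFAD (SD, n = 4 each), 11631 ± 1006 and 9000 ± 337 in M28L, and 12745 ± 1513 and 11532 ± 1207 in P522R. The mitochondrial sum did not follow this. It was 29393 ± 4765 CPM in F and 36205 ± 3575 in M libraries of 5xFAD, 34394 ± 9793 and 31115 ± 1718 in M28L, and 28587 ± 8911 and 41725 ± 15632 in P522R. Bc1 took 7.21% of counts in F and 4.41% in M libraries of 5xFAD on average, 4.62% and 3.37% in M28L, and 12.6% and 7.69% in P522R.

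**Figure D5:**
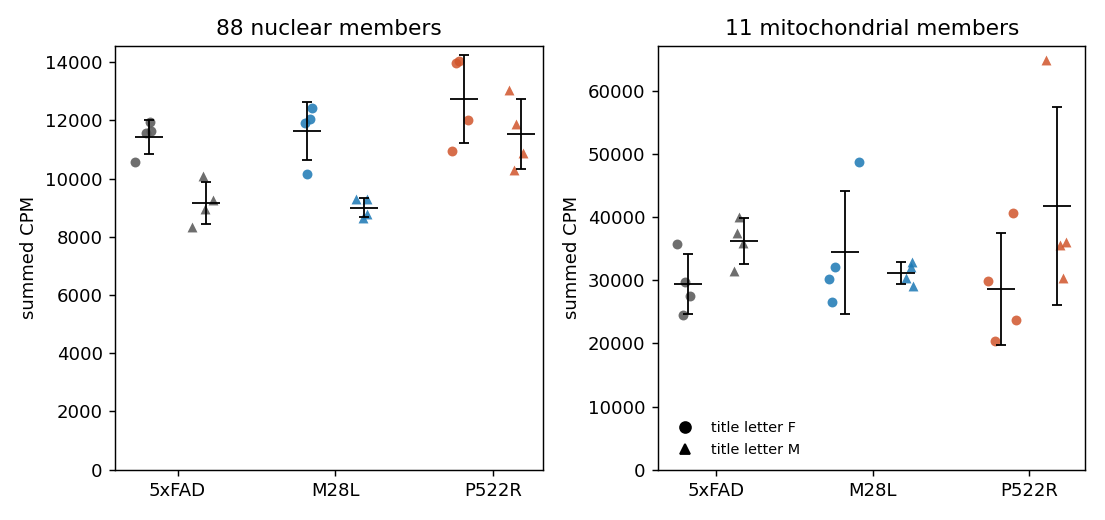
Summed CPM of the nuclear (left) and mitochondrial (right) members in every library by genotype and title letter, with the mean and SD of 4 libraries. In 5xFAD and M28L all M libraries lie below all F libraries in the nuclear sum, and in P522R they overlap; mouse 21 of P522R has the highest mitochondrial sum, 64848 CPM.

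Whether the genotype difference depends on the letter was tested as an interaction in edgeR. Between P522R and M28L, 24 of the 99 members passed, 23 nuclear and mt-Nd6, beside 5.47% of all genes, and in all 24 the P522R difference was larger in M than in F libraries. Between P522R and 5xFAD 0 members passed, beside 0.00% of all genes, and between M28L and 5xFAD 0 passed, beside 0.0282%. At an unadjusted p below 0.05 the same test listed 26 and 1 members. The share of all genes at that threshold is not given here. Atp5l, a membrane subunit of ATP synthase, had the smallest p. Its mean was 80.8 CPM in F and 52.2 in M libraries of M28L, 72.7 and 55.4 in 5xFAD, and 74.7 and 82.8 in P522R, and the log2 difference of P522R from M28L was larger in M by 0.78 (adjusted p = 0.013). Ndufs6, an accessory subunit of complex I, was at 65.6 and 34.5 CPM in M28L and at 52.6 and 55.6 CPM in P522R (1.01, adjusted p = 0.018). Cox5b, of complex IV, was at 227 and 124 CPM in M28L and at 220 and 212 CPM in P522R (0.82, adjusted p = 0.022). Mt-Nd6 was at 405 to 1011 CPM in F and 325 to 394 CPM in M libraries of M28L, and at 400 to 631 and 551 to 857 CPM in P522R (1.19, adjusted p = 0.025). With 4 libraries per letter the count was unstable, from 3 members without M28L mouse 15 (0.386% of all genes) to 38 without M28L mouse 12 (14.4% of all genes), and it was 3 with offsets for GC content and length (1.26% of all genes).

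Genes of neighbouring pathways were read from fixed lists in the comparison of P522R with 5xFAD. Of 77 mitochondrial ribosomal proteins tested, which translate the mitochondrial members, 43 rose and 1 fell (median 0.23), with Mrpl38 at 0.54 ± 0.07 (adjusted p = 5.4e-06). Of 16 glycolytic enzymes 13 rose and 0 fell (median 0.39), among them Hk1 (0.77 ± 0.12), Gapdh (0.54 ± 0.08) and Gpi1 (0.52 ± 0.09). The citric acid cycle had 5 higher and 1 lower of 16 (median -0.03), with Ogdh at 0.68 ± 0.10 and Mdh2 at 0.45 ± 0.08. Assembly factors of complexes II to V were split, with 7 higher and 6 lower of 34 (median -0.06). Coa3, a factor for complex IV, rose by 0.77 ± 0.12, while Coa5 and the ATP synthase factor Atpaf1 fell by 0.55 ± 0.08 and 0.36 ± 0.06. Of 10 other factors for complex I, 2 rose (Ecsit at 0.41 ± 0.06 among them) and 2 fell (Tmem186 and Nubpl). Of 23 import genes 1 rose (Timm50) and 2 fell (Tomm20 and Timm9). Of 16 genes for mitochondrial transcription and replication 4 rose, the RNA polymerase Polrmt at 0.53 ± 0.13 among them, and 2 fell. Of 21 genes for mitochondrial RNA processing 5 rose, Fastkd5 and Hsd17b10 among them, and 1 fell (Angel2). Of 14 regulators of mitochondrial biogenesis, Pprc1 and Ppargc1b rose by 0.63 ± 0.12 and 0.52 ± 0.11, 3 in all rose, and Tfam fell by 0.26 ± 0.08. Of 6 further subunits and carriers, Higd1a rose. Shares of 15.0% and 14.8% of all genes rose and fell. In the fit of the 14656 genes with a mean of at least 1 CPM, 43% were called (3264 higher of 6299).

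Marker lists of cell types moved in part in the same comparison, where 15.0% of all genes rose and 14.8% fell. Of 8 neuronal markers 0 rose and 3 fell (Stmn2, Syt1 and Map2), and their sum was 5997 to 8039 CPM in 5xFAD and 5643 to 8310 CPM in P522R. Of 5 astrocyte markers, Aldh1l1 and Gfap rose, and the sum was 1500 to 3102 CPM in 5xFAD and 1693 to 4348 CPM in P522R. Of 5 microglial markers Csf1r rose, with sums of 467 to 963 and 513 to 1048 CPM. Of 5 oligodendrocyte markers Mag rose and Mbp fell, with sums of 3835 to 4416 and 3358 to 4232 CPM. Of 4 endothelial markers Ly6c1 rose, with sums of 74.1 to 130 and 75.9 to 114 CPM. Of 4 choroid plexus markers 0 passed, and their sums were at most 15 CPM in these genotypes. Of 3 muscle genes tested, Ckm (0.1965 CPM in P522R and 0.0438 in 5xFAD) and Acta1 rose, and of 3 blood genes 0 passed, with sums of at most 21.5 CPM. Against M28L, 16.5% of all genes rose and 18.3% fell, and 48.8% of those with a mean of at least 1 CPM were called. There 5 of 8 neuronal markers fell and 2 rose (median -0.27), with Syt1, Map2 and Stmn2 among the lower and Rbfox3 and Slc17a7 the higher. In the same comparison 2 of 5 astrocyte markers rose (Gfap by 1.20 ± 0.15), as did 3 of 5 microglial (Csf1r and C1qa among them), 2 of 4 endothelial (Cldn5 and Ly6c1), 2 of 5 oligodendrocyte (Mog and Mag) and 1 of 4 mural markers (Pdgfrb). Of the choroid plexus markers Kl fell, of the muscle genes Acta1 rose, and of the blood genes 0 passed. Neuronal sums were 6515 to 7704 CPM and microglial sums 435 to 822 CPM in M28L. The part of cell make-up in the nuclear members was not tested.

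The promoters of nuclear members were searched for 4 elements bound by factors known from genes of the respiratory chain. RefSeq promoters (GRCm38.p6, 250 bases before to 50 after the start) were found for 71 of the 88 members, 76 promoters in all. The NRF1 core GCGCANGCG, on either strand, was in 30.3% of these and in 6.25% of all 32851 promoters of the table. The YY1 core AAGATGGCG was in 10.5% and 1.4%, the core CCGGAAGT of ETS factors such as GABPA in 6.58% and 3.89%, and the ERR element TCAAGGTCA in 2.63% and 0.423%. Any of the 4 was in 43.4% and 11%. Of the 28 members with a promoter that rose against 5xFAD, 15 held at least 1, and of the 42 not called, 17 did. A match is a description of the letters, not of binding.

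The promoters of 3 members are shown with matches in capitals. Those of Ndufv1, Cox5a and Atp5b were also looked at, held 0 matches and are not shown. Uqcrc1 (chr9:108936398-108936697, plus strand) is a core protein of complex III with 3 matches to the NRF1 core, the last 2 overlapping. Ndufs7 (chr10:80249199-80249498, plus strand) is a core subunit of complex I with 1 match to the YY1 core, and was chosen after its match was seen. Sdhb (chr4:140961021-140961320, plus strand) had the largest rise against 5xFAD and none of the 4 in this window.
Uqcrc1: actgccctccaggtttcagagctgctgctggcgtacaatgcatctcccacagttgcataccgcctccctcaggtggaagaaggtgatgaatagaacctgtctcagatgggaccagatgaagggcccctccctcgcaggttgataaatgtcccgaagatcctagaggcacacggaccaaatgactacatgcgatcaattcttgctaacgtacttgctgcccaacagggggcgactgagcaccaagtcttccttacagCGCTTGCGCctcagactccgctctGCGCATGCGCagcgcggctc
Ndufs7: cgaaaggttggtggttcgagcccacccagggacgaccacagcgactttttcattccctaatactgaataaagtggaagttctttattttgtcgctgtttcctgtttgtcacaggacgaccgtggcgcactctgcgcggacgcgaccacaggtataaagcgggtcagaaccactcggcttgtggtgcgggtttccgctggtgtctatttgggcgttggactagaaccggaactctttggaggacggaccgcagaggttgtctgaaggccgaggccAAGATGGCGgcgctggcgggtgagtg
Sdhb: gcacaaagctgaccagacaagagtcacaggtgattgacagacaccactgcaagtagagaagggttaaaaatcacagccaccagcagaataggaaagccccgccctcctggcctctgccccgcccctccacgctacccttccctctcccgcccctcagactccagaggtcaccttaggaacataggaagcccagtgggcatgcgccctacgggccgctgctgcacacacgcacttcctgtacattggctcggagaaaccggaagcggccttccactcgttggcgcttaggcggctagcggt
In Uqcrc1 and Ndufs7 the matches lie within the 50 bases after the annotated start.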

How the data were processed

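RNA was extracted with chloroform and a column kit and an mRNA kit was used for the libraries, per the labels' protocols. Reads were aligned with STAR 2.7.2b and counted with featureCounts, per the submitters' processing notes, and the authors deposited raw counts per gene for 24 libraries. The genome build, annotation, strand setting and treatment of multiply mapping reads were not given in the sources used here. Identifiers were named from GENCODE M21 (52093 of 53647, 97.1%). The numbers in the titles were taken as mice. Titles share a prefix across some genotypes whose meaning is not stated.

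Counts were fitted with edgeR 4.0.16 in R 4.3.3 (quasi-likelihood, TMM factors, filterByExpr, genotype and letter as terms, Benjamini-Hochberg over 21280 genes), with a call at an adjusted p below 0.05. CPM uses the TMM effective library sizes, with a few exceptions. The cutoff at 1 CPM, the mean CPM not per kb of mt-Co2, mt-Atp6, mt-Co3 and mt-Nd3, and the levels of their copies use total counts. So do those of Gm13340 and Gm11410. Log2 differences, SEs and adjusted p-values come from this fit unless another is named; DESeq2 1.42.0 and limma 3.58.1 were alternatives. Copies were found with blastn 2.17.0. The closest 2 libraries of a genotype differed by a chi-square of 7.62 per degree of freedom, so none was counted as a duplicate. Depth of at least 79230161 counts per library makes counting error small against the spread between mice for all but the lowest members.

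Named were the mitochondrial members, in each nuclear group up to 5 with the smallest p per comparison, subunits fixed by role, the highest and lowest per kb, and up to 3 per list; others were chosen after their values were seen (Ndufs3, Ndufs4, Ndufs6, Ndufa5, Atp5j, Atp5l, Cox6b1 and the other members of the closing section). The members and lists were chosen with earlier results of these data known. The lists were mitochondrial ribosome, transcription and replication, RNA processing, import, biogenesis, other subunits, assembly factors, citric acid cycle, glycolysis and cell type markers.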

Additional observations from a re-analysis of the deposited data

Results flagged for a closer look

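Of 198 groups of 8 libraries looked at, 19 (9.6%) held a library far from the others by Dixon's test at the 95% level. Chance flags about 1 in 20 independent groups, but these groups share the same libraries and are not independent. The number of flags was therefore not weighed against chance. Most came from M28L mouse 28, at 17783 CPM for mt-Co1, 8128 for mt-Cytb, 7308 for mt-Nd1, 4820 for mt-Nd2, 4048 for mt-Nd4, 5522 for mt-Nd5, 14.3 for mt-Co3 and 8.4 for mt-Atp6. Its summed mitochondrial level was 48679 CPM, its Atp5h 505 CPM, its Ndufa12 235 CPM and its Bc1 share 6.01%. P522R mouse 21 was high in mt-Co1 (25877 CPM), mt-Nd1 (9650 CPM), mt-Nd2 (6126 CPM), mt-Nd5 (6506 CPM) and the mitochondrial sum (64848 CPM). P522R mouse 24, which had the highest Bc1 share, was high in Ndufa4l2 (4.07 CPM) and Uqcr11 (105 CPM).

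In 24 members the log2 difference of P522R from M28L was larger in M than in F libraries (edgeR interaction term, adjusted p below 0.05). The same test called 5.47% of all genes in either direction. In complex I the excess in M was 0.85 for Ndufa1, 0.81 for Ndufa5, 0.93 for Ndufa12, 0.66 for Ndufab1, 0.44 for Ndufb3, 0.60 for Ndufb5, 0.59 for Ndufs4, 0.63 for Ndufs5, 1.01 for Ndufs6, 0.67 for Ndufv2 and 1.19 for mt-Nd6. In the assembly factors Ndufaf1, Ndufaf2 and Ndufaf5 it was 0.48, 0.69 and 0.47. In complex III it was 0.76 for Uqcrb and 0.47 for Uqcrc2. In complex IV it was 0.82 for Cox5b, 0.60 for Cox7a2, 0.69 for Cox7b and 0.59 for Cox7c. In complex V it was 0.68 for Atp5f1, 0.92 for Atp5h, 0.78 for Atp5l and 0.83 for Atp5mpl. Without M28L mouse 28, 5 of the 24 members were called, beside 1.1% of all genes.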

How the results depend on the processing

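Of 7254 values of named members under 39 alternatives, 6507 kept their direction and call, 431 uncalled values moved, 234 lost their call, 70 gained one and 12 reversed. The 36 nuclear calls between P522R and 5xFAD became 21 without the letter term, 11 in F libraries alone, 15 without libraries with a Bc1 share over 10% (chosen after seeing the data), 2 with the Bc1 covariate and 1 with the title prefix as a replicate block. The share of all genes called in these fits was 21.4%, 13.6%, 11.5%, 4.18% and 4.4%. The 42 calls between P522R and M28L became 27, 23, 18, 0 and 5 in the same order, beside 26.4%, 28.9%, 13.3%, 0.094% and 5.92% of all genes. Leaving out 1 library gave 32 to 42 and 37 to 48, beside 25.1% to 34.9% and 30% to 39.1% of all genes. Between M28L and 5xFAD limma-voom called 2 nuclear and 1 mitochondrial member, beside 9.1% of all genes, and leaving out 1 library gave 0. Mitochondrial calls against 5xFAD and M28L were 3 and 2 with offsets for GC content and length, beside 31.9% and 33.6% of all genes. In M libraries alone they were 1 and 2, beside 21.9% and 24.3%. Against M28L limma-voom gave 1, beside 34.7%, and leaving out 1 library 0 to 1, beside 30% to 39.1%. The 24 interaction calls between P522R and M28L became 3 with offsets for GC content and length, beside 1.26% of all genes. Without 1 library they became 3 to 38, beside 0.386% and 14.4% in the fits with 3 and 38. The 0 between P522R and 5xFAD became 0 to 7, with 7 without M28L mouse 28, beside 1.29% (all chosen after seeing the data).

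Reversals were all between P522R and M28L. With the Bc1 covariate the log2 difference was -0.23 for Atp5e, -0.02 for Ndufa11, -0.09 for Ndufaf3, -0.02 for Ndufb10, -0.04 for Ndufb6, -0.05 for Ndufb7, -0.00 for Ndufs8, -0.01 for Uqcrc1, -0.26 for Uqcrh and -0.07 for Uqcrq, and the nuclear median -0.07. Offsets for GC content and length gave 0.05 for Ndufs1, and M libraries alone 0.22 for Uqcrc2. Bc1 itself differed between these genotypes, so its covariate and the genotype cannot be fully told apart. The cause of the reversals was not tested. Counting error is small at this depth for all but the lowest members.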
